A study of Homo sapiens with 16 samples.

Results

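The 39 genes described here encode the centromere-specific histone CENP-A and the factors that deposit it, the proteins of the inner and outer kinetochore, the corona proteins CENP-E and CENP-F, and the chromosomal passenger complex with the shugoshins. They were taken by gene name from count tables of 58735 genes, and all 39 were present in both tables. RNA was sequenced from SUM159PT and MDA-MB-231 cells, human lines established from triple-negative breast cancers, 48 h after transfection with a single guide RNA. The groups were SUM159PT sgYES1, SUM159PT sgNTS, MDA-MB-231 sgYES1 and MDA-MB-231 sgNTS, each of 4 libraries, where sgNTS is a non-targeting guide and sgYES1 targets YES1, which encodes a Src-family tyrosine kinase. The labels give the genotype of every group as WT, do not name the nuclease that acted with the guides, and do not state whether edited cells were selected. The submitters call the 4 replicates of a group technical, so p-values here measure the spread between libraries and not between independent experiments.

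The kinetochore is the protein assembly that holds a chromosome to spindle microtubules in mitosis. Nucleosomes holding CENP-A mark the centromere, an inner layer of CENP proteins sits on them throughout the cell cycle, and an outer layer of the KNL1, MIS12 and NDC80 complexes assembles on the inner layer and binds microtubules. The chromosomal passenger complex, in which INCENP, survivin (BIRC5) and borealin (CDCA8) carry the kinase Aurora B, corrects faulty attachments, and shugoshins guard cohesion at the centromere. Transcripts of many of these genes rise in late S, G2 and M phase in dividing human cells.

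Total counts per library were 14352042 to 20884267 in SUM159PT and 17156454 to 25124164 in MDA-MB-231. YES1 had 40.2, 40.00, 39.03 and 38.3 CPM in sgYES1 libraries, against 97.9, 93.8, 90.6 and 89.4 CPM in sgNTS libraries in SUM159PT, and 41.6, 42.9, 44.3 and 43.7 CPM in sgYES1 libraries, against 107, 109.6, 107 and 113 CPM in sgNTS libraries in MDA-MB-231, where CPM are counts per 1000000 counts of a library, scaled by TMM within a line. No sgYES1 library overlapped an sgNTS library of its line (exact two-sided permutation test, p = 0.0286 for either line; no smaller p is possible with groups of 4). Between replicates, a chi-square statistic per degree of freedom over genes was 2.33 or more in every pair, so no library was a copy of another. It reached 29.1 for MDA-MB-231 sgNTS replicate 4 and was at most 6.81 elsewhere. SUM159PT sgNTS replicate 2 differed from its group by 3.75 to 5.74, against 2.33 to 2.87 among the other SUM159PT sgNTS libraries. It stood apart within its group only, since pairs of SUM159PT sgYES1 libraries reached 6.24. Counts of called members without MDA-MB-231 sgNTS replicate 4 and SUM159PT sgNTS replicate 2 close the results. Of 10 breast line markers, ESR1, PGR and CDH1 were under 1 CPM in every library, as was EPCAM in SUM159PT. The defining leukocyte markers PTPRC, CD3E and MS4A1 were also under 1 CPM throughout. The summed level of 10 leukocyte markers was 1.70 to 2.31 CPM in SUM159PT sgYES1 libraries against 0.493 to 1.31 CPM in SUM159PT sgNTS libraries, and 11.8 to 13.4 CPM in MDA-MB-231 sgYES1 libraries against 8.99 to 10.1 CPM in MDA-MB-231 sgNTS libraries. The 7 endothelial markers, of which CDH5, VWF, TEK and CLDN5 were under 1 CPM throughout, summed to 6.13 to 11.4 CPM in SUM159PT sgYES1 and 7.82 to 8.89 CPM in SUM159PT sgNTS libraries, and to 91.8 to 102 CPM in MDA-MB-231 sgYES1 and 107 to 115 CPM in MDA-MB-231 sgNTS libraries. Of the markers that passed the filter on low counts in MDA-MB-231, the leukocyte genes CD14, ITGAM and CSF1R rose, with log2 fold changes of 1.19, 1.90 and 0.25. The endothelial genes PECAM1 and KDR rose by 0.83 and 0.73 on the log2 scale, and ESAM, which made up most of the endothelial sum, fell by 0.28. CD14 averaged 1.96 CPM in sgYES1 and 0.853 CPM in sgNTS libraries of that line, and ITGAM 1.14 CPM in sgYES1 and 0.294 CPM in sgNTS libraries. The part of these marker differences in the results was not tested.

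In MDA-MB-231 cells, 33 of the 39 genes fell with sgYES1 and 0 rose at an adjusted p under 0.05 (edgeR's quasi-likelihood test, Benjamini-Hochberg adjustment over 15427 tested genes). Of all tested genes, 22.1% were called lower and 20.8% higher. The median log2 fold change of the members was -0.40, beside 0.01 over all genes, and the members ranged between -0.60 and 0.14. In 33 members every sgYES1 library lay below every sgNTS library, a pattern found in 20.4% of all tested genes, and in 0 members did every sgYES1 library lie above, against 18.8% of all genes. Together the members took 0.191 to 0.204% of all counts in sgYES1 libraries and 0.246 to 0.259% in sgNTS libraries. In bulk RNA, fewer cells in the cycle phases that express these genes and less RNA per cell cannot be told apart. All 28 of 28 genes in a list of other cell cycle genes, such as replication factors and mitotic cyclins, also fell in MDA-MB-231, with a median of -0.45, and the part of cell cycle phase in the members' change was not tested. With library totals in place of TMM scaling, 3956 genes were called higher and 2661 lower, beside 3205 and 3402, and the same 33 members remained called lower.

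**Figure D1:**
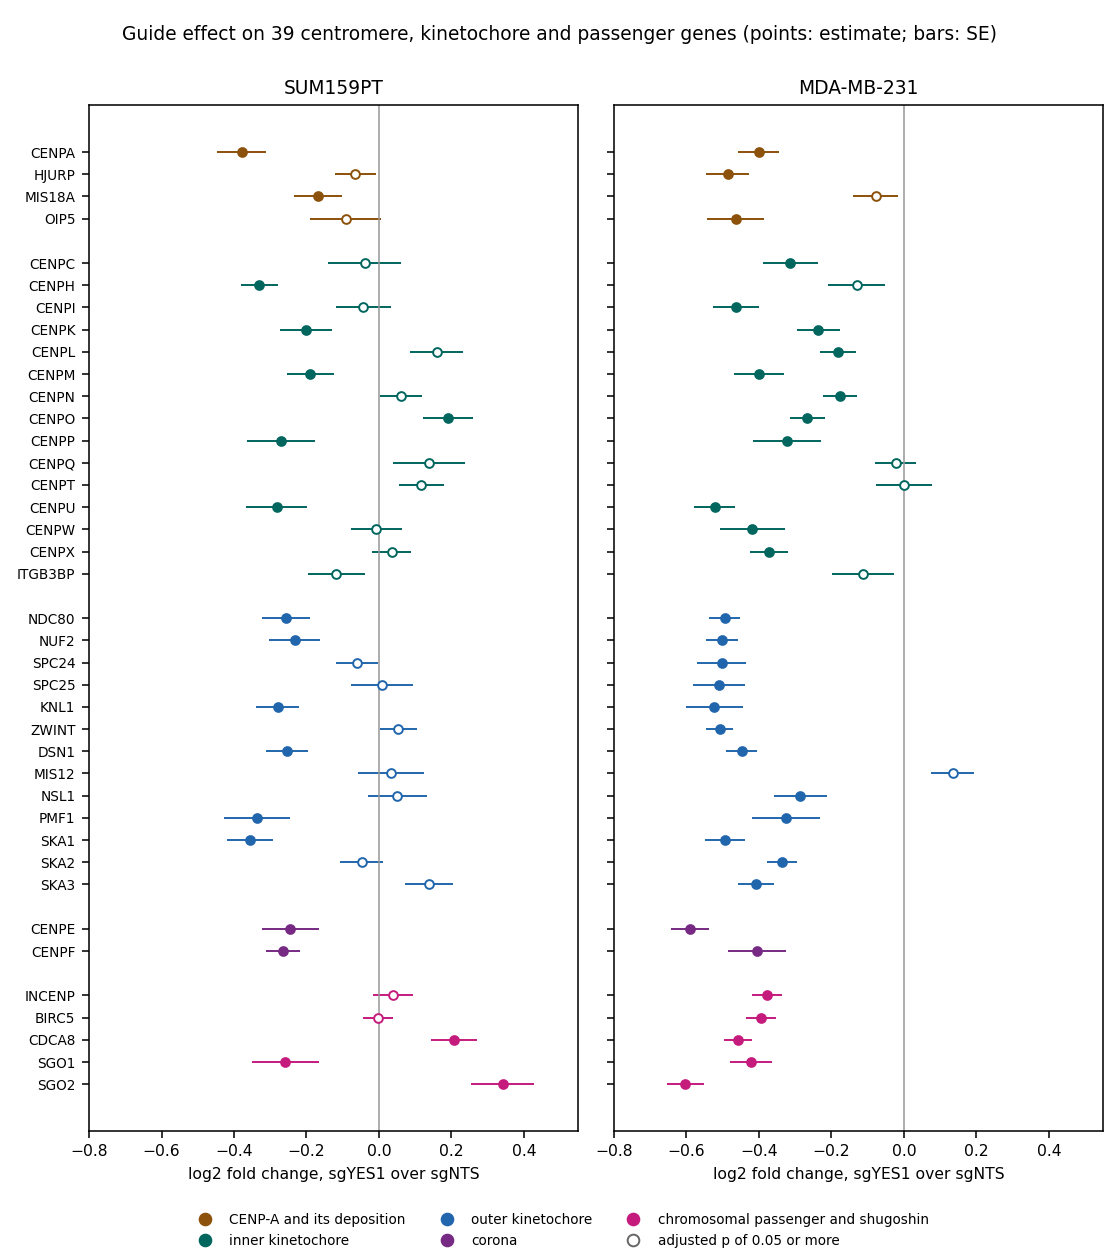
Log2 fold change of sgYES1 over sgNTS (x axis) for each of the 39 genes (rows, grouped by module), in SUM159PT on the left and MDA-MB-231 on the right. Points are edgeR estimates with SE bars, filled where the adjusted p was under 0.05. In MDA-MB-231, 33 filled points lie left of 0, and in SUM159PT 16 lie left and 3 right of it.

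Among the genes for CENP-A and its deposition, 3 of 4 fell in MDA-MB-231, with a module median of -0.43. CENPA (ENSG00000115163, chr2:26764289-26801067, + strand), which encodes the histone H3 variant itself, had 29.8, 29.9, 32.4 and 32.7 CPM in sgYES1 libraries, against 43.9, 40.1, 42.9 and 38.3 CPM in sgNTS libraries and a log2 fold change of -0.40 (SE 0.057, adjusted p = 6.54e-05). HJURP (ENSG00000123485, chr2:233833416-233854566, - strand), the chaperone that places CENP-A on chromatin, had the largest fall of this module: it had 80.7, 85.2, 87.4 and 84.6 CPM in sgYES1 libraries, against 129, 121, 121 and 103 CPM in sgNTS libraries, with a log2 fold change of -0.49 (SE 0.059, adjusted p = 1.42e-05). All sgYES1 libraries lay below all sgNTS libraries for both genes, and replicate 4 was the lowest sgNTS library in both. OIP5, a subunit of the Mis18 complex that licenses deposition, fell by 0.46 on the log2 scale (adjusted p = 0.000304), while its partner MIS18A did not pass the test, at -0.08 (adjusted p = 0.343). Of the exon bases of OIP5, 38.0% are shared with an antisense gene, and no source used here states whether counting used strand.

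In the inner kinetochore, 11 of 15 genes fell in MDA-MB-231 and the median was -0.27. The largest fall was that of CENPU (ENSG00000151725, chr4:184694618-184734133, - strand), a subunit of the CENP-O group that recruits the kinase PLK1. It had 51.9, 61.1, 53.2 and 60.7 CPM in sgYES1 libraries, against 77.3, 84.9, 79.8 and 84.2 CPM in sgNTS libraries, with a log2 fold change of -0.52 (SE 0.058, adjusted p = 5.75e-06). CENPC (ENSG00000145241, chr4:67468748-67545606, - strand), which joins CENP-A nucleosomes to the outer kinetochore, had 18.8, 17.5, 18.5 and 18.2 CPM in sgYES1 libraries, against 24.8, 24.3, 19.4 and 22.1 CPM in sgNTS libraries, with a log2 fold change of -0.31 (SE 0.076, adjusted p = 0.00414). Its sgYES1 libraries all lay below its sgNTS libraries, by a narrow margin from sgNTS replicate 3. CENPX (ENSG00000169689, chr17:82018702-82024107, - strand), a histone-fold partner of CENP-T, CENP-W and CENP-S that also serves in the Fanconi anemia pathway, had 49.2, 52.6, 49.3 and 55.6 CPM in sgYES1 libraries, against 71.9, 64.9, 67.04 and 64.2 CPM in sgNTS libraries. Its log2 fold change was -0.37 (SE 0.052, adjusted p = 5.70e-05). The 4 inner kinetochore genes that did not pass were CENPT at 0.00, CENPQ at -0.02, ITGB3BP (CENP-R) at -0.11 and CENPH at -0.13.

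CENPH (ENSG00000153044, chr5:69189548-69210357, + strand), of the CENP-H, CENP-I, CENP-K and CENP-M group, had 13.5, 14.9, 14.6 and 14.8 CPM in sgYES1 libraries, against 17.8, 16.1, 15.2 and 14.3 CPM in sgNTS libraries, and these groups overlapped. Another member of that group, CENPI, fell by 0.46 (adjusted p = 5.47e-05), CENPM fell by 0.40 (adjusted p = 0.000333) and CENPK by 0.24 (adjusted p = 0.00539). Whether CENPH and CENPI changed by different amounts was not tested.

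Of the 13 outer kinetochore genes, 12 fell in MDA-MB-231 and the median was -0.49. The 4 subunits of the NDC80 complex, the main microtubule coupler, all fell: NDC80 by 0.49, NUF2 by 0.50, SPC24 by 0.50 and SPC25 by 0.51 on the log2 scale. NDC80 (ENSG00000080986, chr18:2571511-2616635, + strand) had 53.5, 57.4, 56.9 and 57.97 CPM in sgYES1 libraries, against 77.4, 83.4, 77.4 and 79.9 CPM in sgNTS libraries (adjusted p = 6.86e-07). NDC80 and SKA1 lie on chromosome 18 with YES1 (chr18:721588-812546, - strand), NDC80 at a distance of 1.76 Mb and SKA1 at 49.6 Mb. Per kilobase and by group mean, NDC80 was the most and SPC25 the least abundant subunit in both groups. Within a library, the highest subunit exceeded the lowest by a mean ratio of 1.58 in sgYES1 libraries (range 1.44 to 1.69). In sgNTS libraries that ratio was 1.56 (range 1.43 to 1.66).

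KNL1 (ENSG00000137812, chr15:40594020-40664342, + strand), the scaffold that docks the BUB1 and BUBR1 checkpoint kinases, had 48.8, 43.9, 40.7 and 43.2 CPM in sgYES1 libraries, against 53.8, 64.8, 62.6 and 72.3 CPM in sgNTS libraries. Its log2 fold change of -0.52 (SE 0.078, adjusted p = 9.91e-05) was the largest fall of the outer kinetochore, and its sgNTS libraries were the more spread. ZWINT (ENSG00000122952, chr10:56357228-56361275, - strand), which binds KNL1 and links it to the dynein-recruiting RZZ complex, had 108, 117, 112 and 115 CPM in sgYES1 libraries, against 166, 162, 159.5 and 154 CPM in sgNTS libraries, with a log2 fold change of -0.51 (SE 0.038, adjusted p = 1.49e-07). In the SKA complex, which helps kinetochores follow shortening microtubules, SKA1 (ENSG00000154839, chr18:50374995-50394173, + strand) had 21.7, 21.2, 22.2 and 24.1 CPM in sgYES1 libraries, against 32.4, 30.7, 31.1 and 31.6 CPM in sgNTS libraries, with a log2 fold change of -0.49 (SE 0.055, adjusted p = 7.05e-06). SKA3 (ENSG00000165480, chr13:21153595-21176602, - strand) had 40.5, 41.3, 37.1 and 42.98 CPM in sgYES1 libraries, against 55.5, 53.2, 52.8 and 53.3 CPM in sgNTS libraries, with a log2 fold change of -0.41 (SE 0.050, adjusted p = 1.65e-05). No sgYES1 library reached the lowest sgNTS library for any of these 4 genes. In the MIS12 complex, which bridges the inner and outer layers, DSN1 fell by 0.45 (adjusted p = 1.85e-06), PMF1 by 0.33 (adjusted p = 0.0118) and NSL1 by 0.29 (adjusted p = 0.00624). MIS12 was at 0.14 (adjusted p = 0.0798), the highest value among the 39, and passed as higher in MDA-MB-231 without sgYES1 replicate 3 or with library totals alone, where its adjusted p reached 0.0192 at the lowest.

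Both corona genes fell in MDA-MB-231. CENPE (ENSG00000138778, chr4:103105806-103198409, - strand), a kinesin that moves chromosomes to the spindle equator, had 73.5, 70.6, 64.9 and 71.4 CPM in sgYES1 libraries, against 103, 104, 99.1 and 115 CPM in sgNTS libraries, with a log2 fold change of -0.59 (SE 0.052, adjusted p = 6.96e-07). CENPF (ENSG00000117724, chr1:214603195-214664588, + strand), a large coiled-coil protein of G2 and mitosis, had 288, 274, 263 and 287 CPM in sgYES1 libraries, against 319, 351, 351 and 451 CPM in sgNTS libraries, with a log2 fold change of -0.41 (SE 0.080, adjusted p = 0.000929). The sgNTS replicate 4 value was the highest for each of these genes, most clearly for CENPF, and each stayed called lower when that library was left out.

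All 5 passenger complex and shugoshin genes fell in MDA-MB-231, with a median of -0.42. INCENP (ENSG00000149503, chr11:62123973-62153163, + strand), the scaffold of the complex, had 120.4, 119, 115 and 129 CPM in sgYES1 libraries, against 151, 156, 161 and 161 CPM in sgNTS libraries, with a log2 fold change of -0.38 (SE 0.041, adjusted p = 4.55e-06). BIRC5 (ENSG00000089685, chr17:78214186-78225636, + strand) had 116, 123, 124 and 133 CPM in sgYES1 libraries, against 166, 162, 165 and 158 CPM in sgNTS libraries, with a log2 fold change of -0.39 (SE 0.042, adjusted p = 4.63e-06). CDCA8 (ENSG00000134690, chr1:37692418-37709719, + strand) had 100.02, 99.7, 107 and 109 CPM in sgYES1 libraries, against 145, 146, 141 and 139 CPM in sgNTS libraries, with a log2 fold change of -0.46 (SE 0.039, adjusted p = 5.26e-07). All 3 complex members were below every sgNTS library in every sgYES1 library, and their falls lay between 0.38 and 0.46 on the log2 scale. AURKB, the kinase subunit, is not among the 39 and was chosen for mention after its values were seen: it fell by 0.23 (adjusted p = 0.00308). SGO2 (ENSG00000163535, chr2:200510008-200583782, + strand), a shugoshin known for protecting cohesin in mouse meiosis, had 54.3, 59.5, 50.8 and 57.4 CPM in sgYES1 libraries, against 87.7, 84.02, 81.4 and 83.7 CPM in sgNTS libraries. At a log2 fold change of -0.60 (SE 0.050, adjusted p = 4.33e-07) it had the lowest fold change among the 39, with no overlap between groups. SGO1, which protects cohesin at mitotic centromeres, fell by 0.42 (adjusted p = 4.88e-05).

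Of a list of 26 other kinetochore and centromere genes, 21 fell, 1 rose and 4 did not pass in MDA-MB-231, with a median of -0.33. By p, the leading genes were SPDL1 (Spindly, a dynein adaptor) at -0.66 (adjusted p = 3.80e-08), SPAG5 (astrin) at -0.50 (adjusted p = 5.11e-08), the mitotic kinase PLK1 at -0.71 (adjusted p = 5.82e-08) and the checkpoint kinase BUB1 at -0.48 (adjusted p = 5.86e-08). The gene that rose was MAD1L1, a checkpoint protein, at 0.39 (adjusted p = 6.37e-06).

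Because most members moved together in MDA-MB-231, their promoters were searched for letters of elements known from cell cycle genes. RefSeq promoter windows of 300 bases (250 before to 50 after a start, GRCh38.p14) were matched by symbol for 33 of the 39 genes. The cell cycle genes homology region was searched as TTTGAA alone and as TTTGAA or TTTAAA, the CCAAT box as CCAAT, and E2F sites as TTTCCCGC, TTTCGCGC, TTTGCCGC or TTTGGCGC, on both strands, with overlap between different motifs allowed. A gene was counted as holding a motif if any of its windows did, and the members had 5 further starts. TTTGAA was in 14 of 33 members (42.4%), against 18.2% of all 27305 genes with a window, and either form was in 16 (48.5%, against 27.9%). CCAAT was in 22 (66.7%, against 39.7%), an E2F word in 4 (12.1%, against 4.0%), and both TTTGAA and CCAAT in 9 (27.3%, against 8.4%). Of the members called lower in MDA-MB-231, 14 of 29 with a window held TTTGAA, and 0 of the 4 not called with a window did. A group of 4 genes is too small to compare such shares, and whether a motif went with a call was not tested. In SUM159PT TTTGAA was held by 5 of 12 members with a window called lower, 2 of 3 of those called higher and 7 of 18 of those not called. An E2F word was held by 3 of the 29 members with a window called lower in MDA-MB-231 and by 1 of the 4 not called. A match in a window describes its letters and not a bound site.

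Shown here are 150 bases of each of 9 windows, 140 before the start and 10 from it, in the direction of transcription. Capitals mark the letters of TTTGAA, of the CCAAT box and of E2F sites, on either strand. The form TTTAAA was left in lower case. The first group holds TTTGAA or its reverse complement TTCAAA and covers CENP-A, the outer kinetochore and the passenger complex, and the last pair, SGO2 and MIS12, is shown as contrast: SGO2 had the lowest and MIS12 the highest fold change in MDA-MB-231, and neither window holds TTTGAA. The SGO2 window does hold the other form, TTTAAA, downstream of the bases shown. That form also lies, in lower case, within the bases shown for CENPA. In the CDCA8 promoter the TTTGAA and ATTGG letters overlap. The intervals, in the order printed, are chr2:26785916-26786065 (+ strand) for CENPA, chr18:2571417-2571566 (+ strand) for NDC80, chr2:168890421-168890570 (- strand) for SPC25, chr10:56361250-56361399 (- strand) for ZWINT, chr13:21176543-21176692 (- strand) for SKA3, chr11:62123871-62124020 (+ strand) for INCENP, chr1:37692376-37692525 (+ strand) for CDCA8, chr2:200526002-200526151 (+ strand) for SGO2 and chr17:5486234-5486383 (+ strand) for MIS12.
CENPA: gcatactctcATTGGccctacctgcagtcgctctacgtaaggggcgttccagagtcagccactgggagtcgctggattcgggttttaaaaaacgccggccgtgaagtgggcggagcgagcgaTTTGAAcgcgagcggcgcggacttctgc
NDC80: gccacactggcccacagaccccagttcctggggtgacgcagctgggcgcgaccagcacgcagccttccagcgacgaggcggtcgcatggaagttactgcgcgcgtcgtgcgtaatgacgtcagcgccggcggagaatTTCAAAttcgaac
SPC25: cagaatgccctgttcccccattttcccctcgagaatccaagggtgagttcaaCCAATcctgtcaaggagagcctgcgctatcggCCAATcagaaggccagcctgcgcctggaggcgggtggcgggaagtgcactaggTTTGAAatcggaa
ZWINT: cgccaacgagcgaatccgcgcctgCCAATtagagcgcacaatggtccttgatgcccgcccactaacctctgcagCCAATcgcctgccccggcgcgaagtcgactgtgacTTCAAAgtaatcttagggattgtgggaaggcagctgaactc
SKA3: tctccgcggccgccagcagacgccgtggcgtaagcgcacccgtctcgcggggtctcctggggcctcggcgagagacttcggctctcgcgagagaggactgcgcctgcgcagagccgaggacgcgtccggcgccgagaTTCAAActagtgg
INCENP: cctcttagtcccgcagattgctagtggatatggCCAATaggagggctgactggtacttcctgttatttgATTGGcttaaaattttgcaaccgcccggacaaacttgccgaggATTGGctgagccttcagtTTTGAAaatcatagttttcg
CDCA8: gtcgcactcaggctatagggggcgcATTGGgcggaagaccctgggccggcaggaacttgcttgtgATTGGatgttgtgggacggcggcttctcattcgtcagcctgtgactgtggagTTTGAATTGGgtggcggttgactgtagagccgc
SGO2: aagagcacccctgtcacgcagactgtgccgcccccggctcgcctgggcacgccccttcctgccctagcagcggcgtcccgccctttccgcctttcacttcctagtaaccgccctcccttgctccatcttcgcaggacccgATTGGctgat
MIS12: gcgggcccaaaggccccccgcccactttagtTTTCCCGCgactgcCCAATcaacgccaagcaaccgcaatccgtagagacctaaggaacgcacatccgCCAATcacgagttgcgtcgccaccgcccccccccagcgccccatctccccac

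In SUM159PT cells the changes were smaller and went both ways. With sgYES1, 16 of the 39 genes fell, 3 rose and 20 did not pass (edgeR, adjusted over 14479 genes), while 19.7% of all tested genes were called lower and 19.6% higher. The share that fell was above that background and the share that rose was below it. The median over the members was -0.06, beside -0.01 over all genes. In 12 members every sgYES1 library lay below every sgNTS library (17.6% of all genes), and in 2 members, CENPO and CENPL (0.16, adjusted p = 0.0878), every sgYES1 library lay above (17.7% of all genes). The members took 0.167 to 0.173% of counts in sgYES1 libraries and 0.172 to 0.185% in sgNTS libraries.

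The genes for CENP-A and its deposition had a median of -0.13 in SUM159PT, and 2 of 4 fell. CENPA had 27.9, 26.8, 25.7 and 27.6 CPM in sgYES1 libraries, against 32.7, 33.4, 38.8 and 35.8 CPM in sgNTS libraries, with a log2 fold change of -0.38 (SE 0.068, adjusted p = 0.000131). HJURP had 46.99, 48.8, 45.6 and 50.05 CPM in sgYES1 libraries, against 49.03, 53.8, 50.01 and 47.7 CPM in sgNTS libraries, with a log2 fold change of -0.07 (SE 0.056, adjusted p = 0.378), and its groups overlapped. MIS18A was called lower at -0.17 (adjusted p = 0.0461). That call was lost in 10 of the alternatives, which were DESeq2, RLE scaling, library totals, no filter on low counts and leaving out any 1 library other than sgNTS replicate 4 or sgYES1 replicate 1, with adjusted p up to 0.226.

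Of the 15 inner kinetochore genes, 5 fell in SUM159PT and 1 rose. CENPH, not called in MDA-MB-231, had 68.2, 62.3, 61.2 and 67.2 CPM in sgYES1 libraries, against 79.4, 83.4, 80.4 and 82.7 CPM in sgNTS libraries, with a log2 fold change of -0.33 (SE 0.051, adjusted p = 2.59e-05), and its groups did not overlap. CENPU had 17.7, 15.9, 17.3 and 20.2 CPM in sgYES1 libraries, against 20.3, 24.1, 21.1 and 21.3 CPM in sgNTS libraries, with a log2 fold change of -0.28 (SE 0.084, adjusted p = 0.0104), and the highest sgYES1 library lay just under the lowest sgNTS library. CENPC had 13.9, 10.4, 13.01 and 12.7 CPM in sgYES1 libraries, against 14.4, 12.9, 11.1 and 13.1 CPM in sgNTS libraries and CENPX had 104, 125, 114 and 117 CPM in sgYES1 libraries, against 107, 117, 115 and 112 CPM in sgNTS libraries; the groups overlapped for both genes and neither passed (adjusted p = 0.789 for CENPC and 0.634 for CENPX). The gene that rose was CENPO (ENSG00000138092, chr2:24793136-24822376, + strand), of the same group of subunits as CENPU. It had 33.2, 36.2, 33.9 and 34.5 CPM in sgYES1 libraries, against 32.4, 31.6, 26.1 and 30.3 CPM in sgNTS libraries, with a log2 fold change of 0.19 (SE 0.069, adjusted p = 0.0328). Of the CENPO exon bases, 31.4% are shared with genes on the opposite strand. The call did not hold when sgNTS replicate 3, sgNTS replicate 4, sgYES1 replicate 2 or sgYES1 replicate 3 was left out, or without a filter on low counts (adjusted p up to 0.126). The other calls in this layer, CENPK at -0.20, CENPM at -0.19 and CENPP at -0.27, each depended on single libraries. Leaving out sgNTS replicate 1 or 4, or sgYES1 replicate 2, 3 or 4, ended the call of CENPK, as did scaling by library totals alone (adjusted p up to 0.115). For CENPM these were sgNTS replicates 2, 3 and 4 and sgYES1 replicate 1 (up to 0.0812), and for CENPP sgNTS replicates 1 and 4 and sgYES1 replicates 1 and 3 (up to 0.105).

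In the outer kinetochore, 6 of 13 genes fell in SUM159PT and 0 rose, with a median of -0.06. NDC80 had 31.2, 26.4, 29.1 and 29.6 CPM in sgYES1 libraries, against 33.8, 33.5, 34.8 and 37.04 CPM in sgNTS libraries, with a log2 fold change of -0.26 (SE 0.066, adjusted p = 0.00373). Its partner NUF2 fell by 0.23 (adjusted p = 0.0113), whereas SPC24, at -0.06, and SPC25, at 0.01, did not pass. Per kilobase, SPC24 exceeded NUF2 by a ratio of 2.45 in sgYES1 libraries (range 2.36 to 2.61). The ratio was 2.18 in sgNTS libraries (range 2.04 to 2.25), so the ranges did not overlap. Ratios of the highest to the lowest subunit were also apart for the MIS12 complex (3.395 to 3.929 in sgYES1, 4.217 to 4.838 in sgNTS libraries). The same held for the CENP-H, CENP-I, CENP-K and CENP-M group (6.388 to 7.217 in sgYES1, 7.55 to 8.477 in sgNTS libraries). They overlapped for the SKA complex, the CENP-O group and INCENP, BIRC5 and CDCA8. KNL1 had 63.4, 52.4, 61.9 and 60.3 CPM in sgYES1 libraries, against 69.7, 75.9, 69.5 and 74.2 CPM in sgNTS libraries, with a log2 fold change of -0.28 (SE 0.059, adjusted p = 0.000663). ZWINT, its partner, had 73.8, 73.5, 78.9 and 74.3 CPM in sgYES1 libraries, against 68.7, 77.4, 70.4 and 73.02 CPM in sgNTS libraries, with overlapping groups and a log2 fold change of 0.05 (SE 0.051, adjusted p = 0.440). In the SKA complex, SKA1 had 32.6, 32.6, 31.2 and 31.6 CPM in sgYES1 libraries, against 40.4, 36.9, 41.6 and 44.7 CPM in sgNTS libraries, with a log2 fold change of -0.35 (SE 0.064, adjusted p = 0.000147). SKA3 had 32.1, 29.9, 31.5 and 27.8 CPM in sgYES1 libraries, against 27.05, 28.4, 27.8 and 27.2 CPM in sgNTS libraries, with a log2 fold change of 0.14 (SE 0.066, adjusted p = 0.104), and passed as higher without sgYES1 replicate 4 (adjusted p = 0.0350). DSN1 fell by 0.25 (adjusted p = 0.00131) and PMF1 by 0.34 (adjusted p = 0.00576).

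Both corona genes fell in SUM159PT as well. CENPF had 159.9, 155, 159 and 152 CPM in sgYES1 libraries, against 181, 207, 183 and 180.1 CPM in sgNTS libraries, with a log2 fold change of -0.26 (SE 0.047, adjusted p = 0.000126) and no overlap between groups. CENPE had 34.00, 28.9, 28.8 and 28.5 CPM in sgYES1 libraries, against 34.1, 41.7, 32.4 and 34.2 CPM in sgNTS libraries, with a log2 fold change of -0.24 (SE 0.079, adjusted p = 0.0177), and its sgYES1 replicate 1 lay within the sgNTS range. Leaving out sgNTS replicate 2, or any of sgYES1 replicates 2, 3 and 4, ended the CENPE call (adjusted p up to 0.0857).

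The passenger and shugoshin genes held 2 of the 3 rises in SUM159PT: of these 5 genes 2 rose, 1 fell and 2 did not pass, and the median was 0.04. SGO2 had 38.3, 32.02, 34.9 and 31.5 CPM in sgYES1 libraries, against 24.3, 31.6, 23.1 and 28.6 CPM in sgNTS libraries, with a log2 fold change of 0.34 (SE 0.087, adjusted p = 0.00352). Its groups met at their edges, sgNTS replicate 2 lying above sgYES1 replicate 4. CDCA8 had 67.1, 63.1, 61.98 and 70.6 CPM in sgYES1 libraries, against 49.7, 63.1, 57.5 and 57.4 CPM in sgNTS libraries, with a log2 fold change of 0.21 (SE 0.064, adjusted p = 0.0132). That call was lost without sgNTS replicate 1, the lowest library (adjusted p = 0.0721). INCENP had 92.9, 97.8, 94.4 and 95.4 CPM in sgYES1 libraries, against 83.8, 103, 88.8 and 94.6 CPM in sgNTS libraries and BIRC5 had 222, 226, 222 and 239 CPM in sgYES1 libraries, against 223, 230.04, 223 and 235 CPM in sgNTS libraries; neither passed, and the 95% intervals of the log2 fold change were -0.07 to 0.15 for INCENP and -0.09 to 0.08 for BIRC5. SGO1 fell by 0.26 (adjusted p = 0.0305), and this call depended on sgNTS replicates 1 and 4 and sgYES1 replicates 2 and 3, with adjusted p up to 0.119 when any of them was left out, and it was also lost with library totals alone. AURKB was at -0.07 (adjusted p = 0.292).

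Of the 26 other kinetochore and centromere genes, 6 fell and 1 rose in SUM159PT. The leading genes by p all fell: SPDL1 at -0.42 (adjusted p = 1.14e-06), BOD1, an inhibitor of the phosphatase PP2A-B56, at -0.38 (adjusted p = 3.74e-06), KNTC1 (ROD) at -0.38 (adjusted p = 7.48e-06) and the microtubule-binding protein CLASP1 at -0.32 (adjusted p = 8.63e-06). CENPB, which binds a sequence of alpha satellite DNA, rose by 0.22 (adjusted p = 0.000568). Of the 28 other cell cycle genes, 8 rose and 8 fell, with a median of -0.02.

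**Figure D2:**
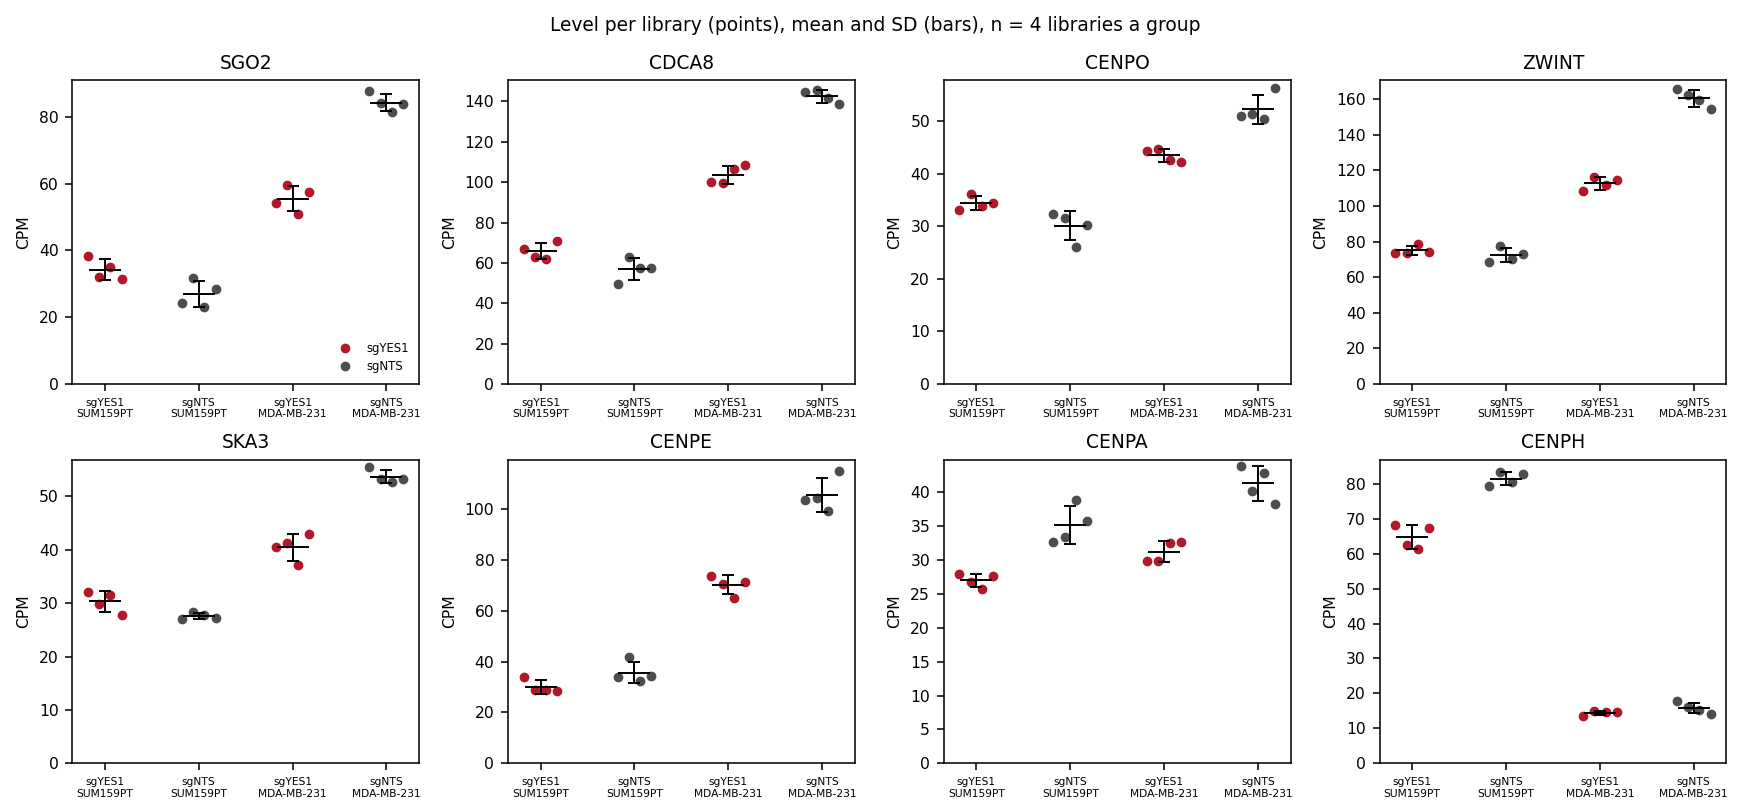
CPM, scaled within each line (y axis, starting at 0), of 8 genes in each library (points; red sgYES1, grey sgNTS), with the mean and SD of 4 libraries. SGO2, CDCA8 and CENPO were higher with sgYES1 in SUM159PT and lower with sgYES1 in MDA-MB-231, and CENPA was lower with sgYES1 in both lines.

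The guide effects of both lines were set against each other in a fit of all 16 libraries, with the MDA-MB-231 effect subtracted from the SUM159PT effect. In this test 21 of the 39 genes were called higher, that is, less negative or positive in SUM159PT, and 0 lower, while 12.7% of 16640 genes were called higher and 11.9% lower. The median difference over the members was 0.26, beside -0.01 over all genes. By module the median was 0.19 for CENP-A and its deposition, 0.22 for the inner kinetochore, 0.26 for the outer kinetochore, 0.23 for the corona and 0.40 for the passenger and shugoshin genes. Differences between these module medians were not tested.

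Across lines, 14 genes fell in both, 16 were called in MDA-MB-231 alone, 2 (MIS18A and CENPH) in SUM159PT alone, 4 in neither, and 3 were called in opposite directions. Of all tested genes, 22.1% were called lower and 20.8% higher in MDA-MB-231, and 19.7% lower and 19.6% higher in SUM159PT. Pairs of calls were not counted over all genes, and whether the members' counts differ from them was not tested. The 3 opposite genes were SGO2, CDCA8 and CENPO. SGO2 was at 0.34 in SUM159PT and -0.60 in MDA-MB-231, a difference of 0.93 (SE 0.11, adjusted p = 6.37e-07). CDCA8 was at 0.21 in SUM159PT and -0.46 in MDA-MB-231, a difference of 0.65 (SE 0.080, adjusted p = 1.61e-06). CENPO, with 44.3, 44.8, 42.6 and 42.3 CPM in sgYES1 libraries, against 50.9, 51.3, 50.4 and 56.3 CPM in sgNTS libraries in MDA-MB-231, was at 0.19 in SUM159PT and -0.27 in MDA-MB-231, a difference of 0.44 (adjusted p = 0.000311).

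Further differences with the smallest p were those of ZWINT (0.55, adjusted p = 5.40e-07), SKA3 (0.53, adjusted p = 1.94e-05), BIRC5 (0.38, adjusted p = 4.73e-05), INCENP (0.40, adjusted p = 0.000189) and CENPX (0.40, adjusted p = 0.000564). Each of these fell in MDA-MB-231 and was not called in SUM159PT. The passenger complex subunits INCENP, BIRC5 and CDCA8 thus all differed between the lines, as did SGO2, whereas SGO1 did not pass (0.15, adjusted p = 0.347). CENPA had a difference of 0.01 with a 95% interval of -0.17 to 0.19 (adjusted p = 0.969). CENPF (0.13), SKA1 (0.13), KNL1 (0.23) and CENPU (0.23) did not pass either, and their adjusted p lay between 0.103 and 0.371. KNL1 passed without the filter on low counts and without MDA-MB-231 sgNTS replicate 1 or SUM159PT replicate 2 of either guide (adjusted p down to 0.0123), and CENPU without MDA-MB-231 sgYES1 replicate 2 or 4 or SUM159PT replicate 2 of either guide (down to 0.0228). DSN1, at 0.18 with an adjusted p of 0.0555, passed in 11 alternatives, RLE scaling and DESeq2 among them. The OIP5 call was lost in 10 alternatives (adjusted p up to 0.108), among them without MDA-MB-231 sgNTS replicate 1, 2 or 3, MDA-MB-231 sgYES1 replicate 1 or 3, SUM159PT sgNTS replicate 1 or 4 or SUM159PT sgYES1 replicate 4. That of NDC80 was lost without MDA-MB-231 sgNTS replicate 2 or sgYES1 replicate 1, or without both control libraries that stood apart (up to 0.0684), that of NSL1 without MDA-MB-231 sgYES1 replicate 1 or 3 (up to 0.0662), and that of CENPN without MDA-MB-231 sgYES1 replicate 3 or the filter on low counts (up to 0.0706).

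**Figure D3:**
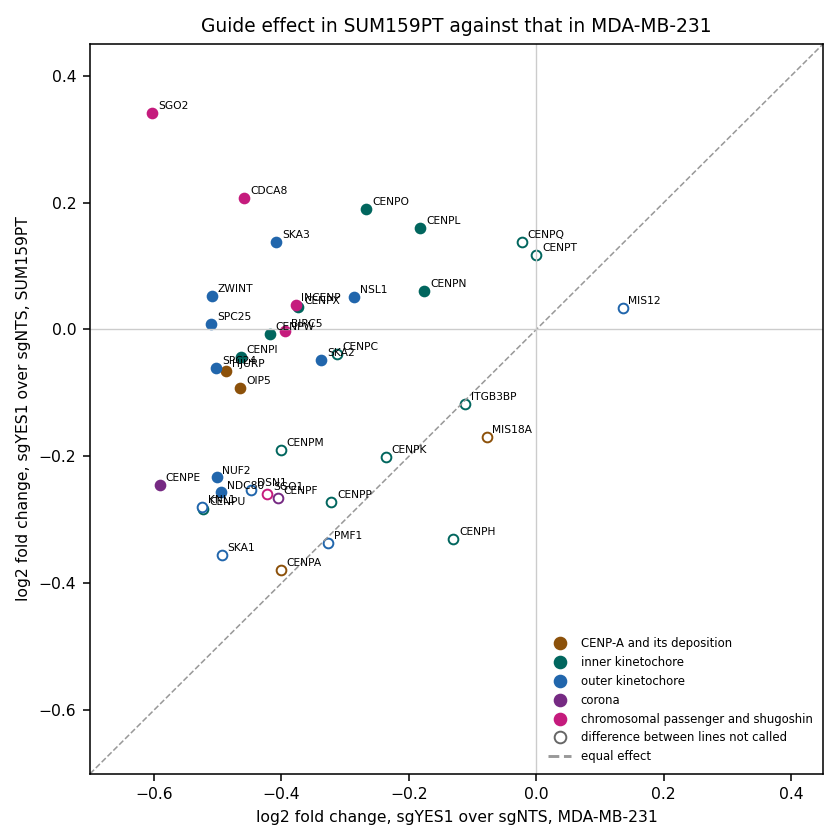
Log2 fold change of sgYES1 over sgNTS in SUM159PT (y axis) and in MDA-MB-231 (x axis), 1 point a gene, coloured by module and filled where the difference between lines had an adjusted p under 0.05. The 21 filled points lie above the line of equal effect, SGO2 farthest from it.

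**Figure D4:**
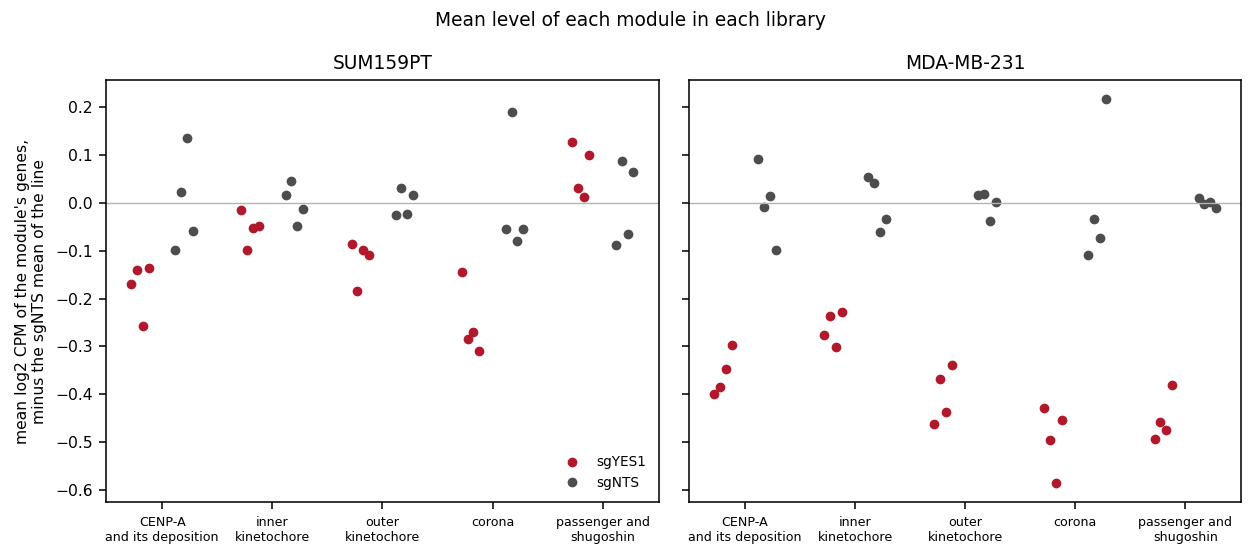
Mean log2 CPM of the genes of each module in each library, minus the mean of the sgNTS libraries of that line (y axis), for SUM159PT on the left and MDA-MB-231 on the right. In MDA-MB-231 the sgYES1 libraries of every module lie below all sgNTS libraries. In SUM159PT those of the inner kinetochore and of the passenger and shugoshin module overlap the sgNTS libraries.

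Averaged over the genes of a module, the log2 CPM of the inner kinetochore in MDA-MB-231 sgYES1 libraries lay between -0.30 and -0.23 relative to the sgNTS mean, and that of the outer kinetochore between -0.46 and -0.34. The passenger and shugoshin mean lay between -0.49 and -0.38 in sgYES1 libraries, against -0.01 to 0.01 in the sgNTS libraries of MDA-MB-231. In SUM159PT the outer kinetochore mean lay between -0.18 and -0.09 in sgYES1 libraries, below the -0.02 to 0.03 of sgNTS libraries. The inner kinetochore mean lay between -0.10 and -0.01 in sgYES1 libraries and between -0.05 and 0.05 in sgNTS libraries of SUM159PT, so these overlapped. The passenger and shugoshin mean in SUM159PT was 0.01 to 0.13 in sgYES1 libraries and -0.09 to 0.09 in sgNTS libraries.

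The lines also differed in the level of these genes without the YES1 guide. In sgNTS libraries, 10 members were higher and 25 lower in SUM159PT than in MDA-MB-231 (same fit of 16 libraries), while 40.5% of 16640 genes were called higher and 41.3% lower. The median log2 difference was -0.55 over the members, beside -0.01 over all genes. Single libraries decided the calls of CENPK (without MDA-MB-231 sgNTS replicate 2, adjusted p = 0.0504), CENPP (without SUM159PT sgNTS replicate 4, adjusted p = 0.0603) and KNL1 (without MDA-MB-231 sgNTS replicate 1, adjusted p = 0.0616), and CENPT, not called at -0.14, was called lower in 12 alternatives. Neither line is a control of the other, and they share no libraries.

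CENPH had the largest line difference upward, at 36.8 ± 1.04 CPM per kilobase in SUM159PT and 6.97 ± 0.66 in MDA-MB-231 (SD, n = 4 each), a 5.28-fold higher level (adjusted p = 4.13e-22). In the other direction CENPU was at 7.44 ± 0.57 CPM per kilobase in SUM159PT and 27.3 ± 1.24 in MDA-MB-231, 3.66-fold lower (adjusted p = 1.74e-18). SGO2 was at 4.53 ± 0.67 CPM per kilobase in SUM159PT and 13.8 ± 0.42 in MDA-MB-231, 3.04-fold lower in SUM159PT (adjusted p = 2.70e-16), and CENPE was 2.88-fold lower (adjusted p = 8.33e-17). SGO2, CDCA8 and CENPO, the 3 genes that rose with sgYES1 in SUM159PT, each had the lower sgNTS level there, with log2 differences of -1.60, -1.29 and -0.76. So did most members, among them CENPU and CENPE, which fell with sgYES1 in SUM159PT. Whether the sgNTS level went with the direction of the guide effect was not tested. The comparison of lines and that of guides use the same sgNTS libraries, so these values are not independent of each other. CENPA differed less, with 17.98 ± 1.48 CPM per kilobase in SUM159PT and 20.6 ± 1.26 in MDA-MB-231 (log2 difference -0.19, adjusted p = 0.00581).

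Within the passenger complex, per kilobase, BIRC5 was at 60.5 ± 2.00 CPM in SUM159PT and 42.2 ± 0.89 in MDA-MB-231, CDCA8 at 23.4 ± 2.31 in SUM159PT and 57.0 ± 1.35 in MDA-MB-231, and INCENP at 21.0 ± 1.90 in SUM159PT and 34.7 ± 1.02 in MDA-MB-231. Among these 3 subunits, the highest level per kilobase was that of BIRC5 in SUM159PT and of CDCA8 in MDA-MB-231. The level of AURKB per kilobase was not computed. Over the 39 genes, the highest level per kilobase was that of CENPX in SUM159PT (74.4 ± 3.09 CPM per kilobase) and of ZWINT in MDA-MB-231 (66.7 ± 2.09). The lowest was that of CENPP in both (1.44 ± 0.16 in SUM159PT and 1.19 ± 0.076 in MDA-MB-231). Of the CENPP exon bases, 42.7% are shared with genes on the opposite strand. The deposited lengths equal all annotated exon bases of each of the 39 genes, not the length of the expressed transcript. Ranks between genes therefore depend in part on the annotation. The Spearman correlation of sgNTS levels per kilobase between the lines was 0.76 across the 39 genes, while that of the guide's log2 fold changes was 0.22. Both are descriptions across genes, which are not independent replicates, and gene length is shared by the levels.

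**Figure D5:**
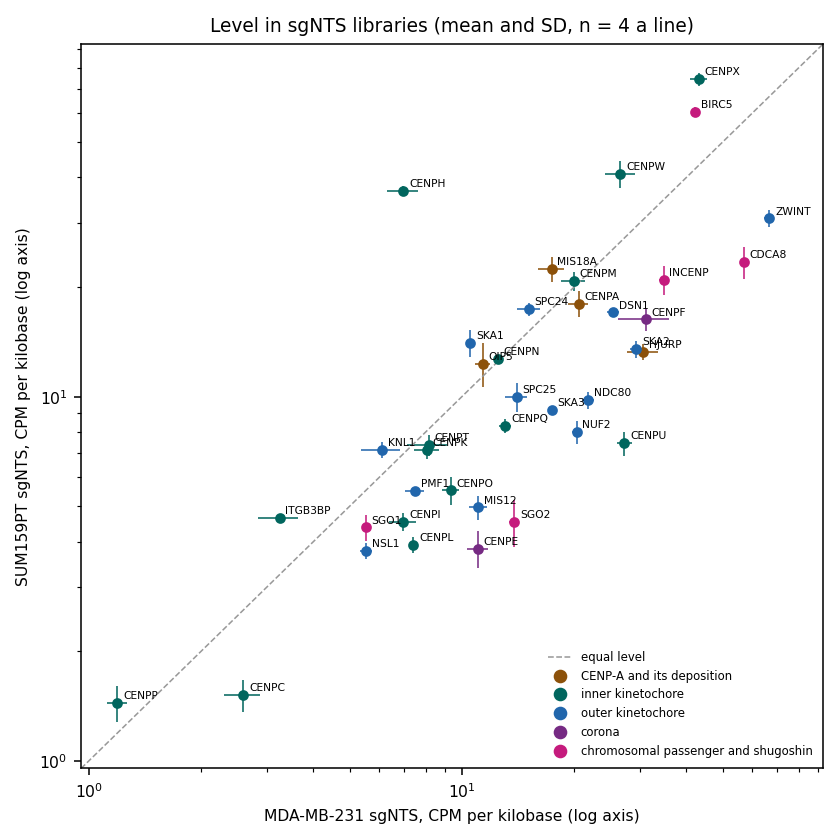
Mean level in sgNTS libraries, in CPM per kilobase scaled over all 16 libraries, in SUM159PT (y axis) and MDA-MB-231 (x axis), both on log axes, with SD bars over 4 libraries. CENPH lies far above the line of equal level, and CENPU, SGO2 and CENPE lie below it.

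Some members share exon bases with neighbouring genes: 17 of 39 do, and 3 (OIP5, CENPO and CENPP) share over 25%. Among the 22 without such overlap, 19 fell and 0 rose in MDA-MB-231, and 10 fell and 1 rose in SUM159PT. Of these 22, 12 had a higher and 0 a lower effect in SUM159PT than in MDA-MB-231. Of all tested genes, with or without overlap, 22.1% fell and 20.8% rose in MDA-MB-231, and 19.7% fell and 19.6% rose in SUM159PT. In the difference, 12.7% of all genes were called higher and 11.9% lower. CENPC, CENPI, CENPU, SKA2 and SGO1 have annotated pseudogenes of their name, so their reads may be split. Without the 2 control libraries that stood apart, 21 members had a higher effect in SUM159PT than in MDA-MB-231 and 0 a lower one. These were not the same 21 as in the main comparison, since NDC80 was lost and CENPT gained. In the comparison of sgNTS libraries between lines, leaving out the same 2 libraries kept 34 of 35 calls. There SPC24 was lost and CENPT gained. In the single-line comparisons, leaving out MDA-MB-231 sgNTS replicate 4 kept all 33 calls of that line, and leaving out SUM159PT sgNTS replicate 2 kept 16 of 19, the lost ones being CENPM, CENPE and MIS18A.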

How the data were processed

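The authors deposited, per the file headers, raw counts per gene and a gene length for 8 libraries of each line. Per the submitters' processing notes the tools were HISAT2 2.0.5 and featureCounts 1.5.0-p3 with hg38, and all 58735 genes carry the identifiers and positions of GENCODE 29. No source used here states whether counting used strand. Sample groups come from the titles. Each line was fitted with edgeR 4.0.16 in R 4.3.3 (filterByExpr with counts of 10 and 15, TMM scaling, quasi-likelihood test, Benjamini-Hochberg adjustment over all tested genes, threshold 0.05), and the difference between lines and the line contrast came from group means of all 16 libraries. The fits were tested on simulated data. A gene of the leukocyte marker list is not reported here and was left out of its sum. CPM per kilobase used the deposited gene lengths, which for each of the 39 genes equal all its annotated exon bases. Module means used log2 CPM with a prior count of 2. The members, lists and tests were chosen with earlier results of these data known. Values in every library were printed for CENPA, CENPC, NDC80, KNL1, CENPE, INCENP and BIRC5, for the called member with the largest change of each module and line, for the 8 members with the smallest p in the difference, and for members called higher or in opposite directions. From the list of other kinetochore genes, the 4 with the smallest p in each line were named, and of other genes MAD1L1, CENPB and AURKB were chosen after their values were seen. Alternatives were RLE scaling, library totals, no filter on low counts, DESeq2 1.42.0, a replicate block, each library left out in turn, a prior count of 0.5 and, chosen after seeing the data, leaving out both controls that stood apart and leaving out members with shared exons.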

Additional observations from a re-analysis of the deposited data

Results flagged for a closer look

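In 6 of 156 groups of 4 libraries, a single library lay far from the others by Dixon's criterion, where chance gives about 5% of groups. CENPO in MDA-MB-231 sgNTS replicate 4 was at 56.3 CPM, while the other 3 libraries lay between 50.4 and 51.3 CPM. DSN1 in MDA-MB-231 sgNTS replicate 1 was at 74.6 CPM, while the other 3 libraries lay between 68.8 and 69.7 CPM. SGO1 in MDA-MB-231 sgNTS replicate 2 was at 21.0 CPM, while the other 3 libraries lay between 21.5 and 21.6 CPM. CENPE in SUM159PT sgYES1 replicate 1 was at 34.0 CPM, while the other 3 libraries lay between 28.5 and 28.9 CPM. CENPF in SUM159PT sgNTS replicate 2 was at 207 CPM, while the other 3 libraries lay between 180.1 and 183 CPM. ZWINT in SUM159PT sgYES1 replicate 3 was at 78.9 CPM, while the other 3 libraries lay between 73.5 and 74.3 CPM. No library held more than 1 of these genes.

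The effect of the guide differed between the lines, by the test of the difference itself, for 21 genes, and in each case the log2 fold change in SUM159PT was the higher of the pair. In order of p, the differences (SUM159PT minus MDA-MB-231, log2) were those of ZWINT (0.55), SGO2 (0.93), CDCA8 (0.65), SKA3 (0.53), BIRC5 (0.38), INCENP (0.40) and CENPO (0.44). Next came CENPX (0.40), HJURP (0.41), SPC24 (0.43), SPC25 (0.51), CENPL (0.33), CENPI (0.41) and SKA2 (0.28), and then CENPW (0.40), CENPE (0.33), NUF2 (0.26), NSL1 (0.32), CENPN (0.22), NDC80 (0.23) and OIP5 (0.36). In the same fit 12.7% of all genes were called in this direction.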

How the results depend on the processing

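The sign of every member value held under every alternative where the value was called, and the count of members called lower in MDA-MB-231 was 33 in all of them, as in the main comparison. The count of members called higher in MDA-MB-231, 0, was 1 (MIS12) with library totals alone and 0 to 1 without single libraries. The count of members with a lower effect in SUM159PT, 0, was 0 to 1 without single libraries (CENPH, without MDA-MB-231 sgNTS replicate 1). Without single libraries, 11 to 14 members fell and 2 to 4 rose in SUM159PT, and 18 to 25 had a higher effect in SUM159PT than in MDA-MB-231. Of members, 9 to 10 were higher and 24 to 26 lower in SUM159PT sgNTS than in MDA-MB-231 sgNTS libraries. Over all genes, 2441 to 2844 fell and 2439 to 2832 rose in SUM159PT, and 1911 to 2683 had a higher effect there. Between the sgNTS groups, 6505 to 6856 of all genes were higher and 6909 to 7158 lower in SUM159PT. Among the alternative values of single members, 2591 kept their side of the threshold, 60 lost a call and 40 gained one, and 0 reversed; the cause was not tested. With the replicate number as a replicate block all 33 calls of MDA-MB-231 and all 19 of SUM159PT were kept, and 20 of 21 in the difference, OIP5 being lost. The libraries showed no sign of pairing by number. Deviations of same-numbered libraries correlated between -0.106 and 0.049, none over 0.1. In MDA-MB-231 1 sgYES1 library of 4, and in SUM159PT 2 of 4, correlated best with its own number. So few libraries cannot exclude a weak pairing. The SE of members' log2 fold changes, 0.038 to 0.101 within a line, limit which small changes could be called.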
